A study of Mus musculus with 6 samples.

Results

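The genes described here are 10 ligands through which a leukemia cell can be tolerated or spared by T cells, natural killer cells and macrophages: Cd274, Pdcd1lg2, Cd80, Cd86, Vsir, Cd47, Cd24a, Pvr, Nectin2 and Lgals9. They were chosen by name from the array's annotation, and each of the 10 was measured by 1 probe set paired with that gene alone, out of 30142 genes tested. Total RNA had been profiled on Affymetrix arrays. It came from leukemia cells in the marrow of secondary transplant recipients, sorted on GFP. There were 3 samples of Ppara+/+ leukemia and 3 of Ppara-/- leukemia. Both kinds of leukemia carried the fusion oncogene MLL-AF9 from a retrovirus (MSCV-MLL-AF9-IRES-GFP), and they differed in the germline Ppara genotype of the mice that gave the cells. Ppara encodes a nuclear receptor activated by fatty acids. The labels give no age of the mice, do not say which genotype the recipients had, and do not say whether the replicates came from separate primary leukemias or animals. The p-values therefore measure the spread between these 6 samples, which may be technical.

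Checkpoint ligands work by binding a receptor on another cell. CD274 (PD-L1) and PDCD1LG2 (PD-L2) engage the inhibitory receptor PD-1 of T cells, whereas CD80 and CD86 can either costimulate T cells through CD28 or restrain them through CTLA4. CD47 and CD24 restrain phagocytosis by macrophages through SIRPA and a sialic acid binding lectin. PVR and NECTIN2 are shared by the activating receptor CD226 and the inhibitory receptor TIGIT, and PVR is also bound by CD96. Galectin-9 (Lgals9) binds TIM-3, and VISTA (Vsir) is a B7 family protein of myeloid cells. The arrays measured RNA of the whole sorted population and not protein at the cell surface.

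Regulatory sequence is shown for 2 of the ligands: Nectin2, whose values did not overlap between genotypes, and Lgals9, the 1 ligand whose window held a match to a motif searched. Each stretch is the 250 bases before the gene start in RefSeq, mouse build GRCm38.p6, read 5′ to 3′ on the gene's own strand. Capitals mark a match to GAAA repeated after 2 bases, the core of the interferon-stimulated response element, which on this strand reads as its reverse complement.
Lgals9 (chr11:78984925-78985174, minus strand): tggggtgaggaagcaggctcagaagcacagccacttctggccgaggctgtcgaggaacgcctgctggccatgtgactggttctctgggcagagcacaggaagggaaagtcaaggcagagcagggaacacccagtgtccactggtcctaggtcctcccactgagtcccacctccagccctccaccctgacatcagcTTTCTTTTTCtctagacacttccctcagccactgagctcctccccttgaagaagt
Nectin2 (chr7:19749574-19749823, minus strand): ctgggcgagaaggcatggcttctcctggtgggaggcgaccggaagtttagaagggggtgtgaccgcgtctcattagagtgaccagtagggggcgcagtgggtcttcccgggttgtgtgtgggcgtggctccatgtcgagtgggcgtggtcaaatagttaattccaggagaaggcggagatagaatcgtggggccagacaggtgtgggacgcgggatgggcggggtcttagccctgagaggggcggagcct
The match before Lgals9 lies 55 to 46 bases before the start. No other match to the 4 motifs searched was found in the 8 promoter entries that 7 of the 10 ligands had (Cd274, Pdcd1lg2, Cd80, Nectin2, Lgals9 and Vsir with 1 entry each, and Cd47 with 2). For Cd274, Cd80 and Cd47 the windows lie inside the span that RefSeq gives the gene, downstream of its outermost start. The motifs were AGGTCA, the hexamer that nuclear receptors bind, the same hexamer repeated after 1 base (the arrangement that PPARA and its partner RXR bind), the GAAA pair, and TTCNNNGAA, the gamma-activated site, each on both strands. A single hexamer was present in 14% of all 32851 promoter windows of this length, its repeat in 0.0335%, the GAAA pair in 2.98% and TTCNNNGAA in 7.02%. A repeat match is also counted as single hexamers. These are matches of letters and not measured binding sites, and a missing match says only that the letters are not in this window.

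The deposited log2 signals ran from 1.67 to 14.42. The table has no detection calls, so each ligand was set against the 5222 negative-control probe sets of the same array, whose 95th percentile was 7.91 to 8.23. Between 11.4% and 14.3% of the named genes lay above it. The negative-control median was 4.63 to 4.81 on 4 arrays, 4.99 on Ppara-/- replicate 2 and 5.16 on Ppara+/+ replicate 1, which therefore stand apart. Ppara itself had signals of 4.87, 5.19 and 5.18 in Ppara+/+ and 5.29, 5.05 and 5.23 in Ppara-/- samples, none above the 95th percentile. Since the part of the gene that its probes match is not known here, this does not check the genotype labels. Markers of the labelled cells were present, with 11 of 13 leukemia markers above the 95th percentile on every array. Among them were the leukocyte antigen Ptprc (9.05 to 9.58) and the myeloid integrin Itgam (10.89 to 11.49). The receptor tyrosine kinase Kit was above it on the 3 Ppara-/- arrays only. Kit read 8.12, 7.62 and 7.60 in Ppara+/+ and 8.22, 8.55 and 8.19 in Ppara-/- samples, a log2 difference of 0.54. This difference did not pass (limma adjusted p = 0.546), but it did with array weights (limma adjusted p = 0.0451). Of 8 T cell, 8 B cell, 7 NK cell, 7 erythroid and 5 megakaryocyte and platelet markers measured, none was above the 95th percentile on any array, the T cell receptor subunit Cd3e (4.77 to 5.22) among them. By contrast, 6 of 10 mature neutrophil markers and 1 of 9 stroma and endothelium markers were above it on all 6 arrays.

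None of the 10 ligands passed the test between the genotypes, and 4 of them had strong signals in both. Cd47, Cd24a, Lgals9 and Vsir lay above the 95th percentile of the negative controls on all 6 arrays, and Cd274, Pdcd1lg2, Cd80, Cd86, Pvr and Nectin2 lay under it on all 6. The count was 0 of 10 at an adjusted p under 0.05 (limma, Benjamini-Hochberg adjustment over 30142 genes), against 0.126% of all genes. Only Nectin2, 1 of 10, had an unadjusted p under 0.05, against 5.78% of all genes. In 7 of 10 the mean was lower in Ppara-/- leukemia, against 42.7% of all genes. This number was 5 to 8 with 1 array left out. It was 4 when the arrays were centred on their negative controls, which moved the median difference of all genes to 0.15. The share of all genes below 0 under that setting is not given here, so the 4 cannot be set against the 42.7%. The median log2 difference of the 10 was -0.07, and that of all genes was 0.02. All 10 confidence intervals (95%) lay within 1 log2 unit of 0, that is, within a doubling or halving of the signal. In a population measured in bulk, fewer cells of a type and less RNA per cell cannot be told apart.

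**Figure D1:**
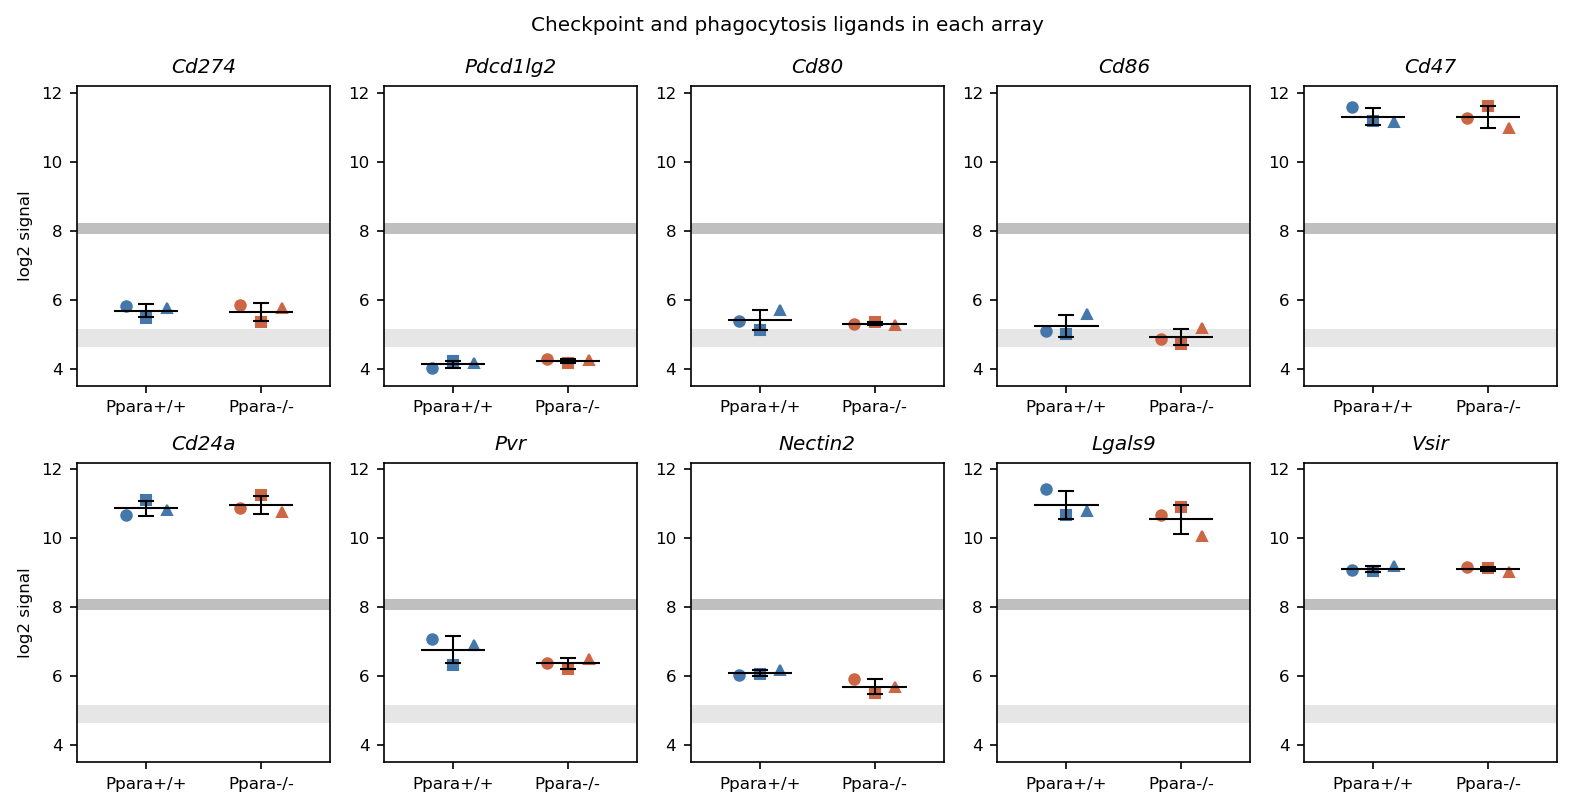
Log2 signal (y axis) of each ligand in the 3 Ppara+/+ (blue) and 3 Ppara-/- (orange) arrays, with circles, squares and triangles for replicates 1, 2 and 3, and lines and bars for the mean ± SD. The dark grey band spans the 95th percentile of the negative controls over the 6 arrays and the light band their median; Cd47, Cd24a, Lgals9 and Vsir lie above the dark band and the other 6 ligands below it.

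The ligands that restrain phagocytosis were among those above background, and neither passed the test. Cd47, the signal that engages SIRPA on macrophages, read 11.59, 11.19 and 11.16 in Ppara+/+ replicates 1, 2 and 3 and 11.27, 11.62 and 10.98 in Ppara-/- replicates 1, 2 and 3. The genotypes overlapped, and the highest value of each came from the array with the highest negative-control median of that genotype. The means were 11.31 ± 0.24 (SD, n = 3) in Ppara+/+ and 11.29 ± 0.32 in Ppara-/- leukemia. The log2 difference was -0.02 (95% confidence interval -0.44 to 0.39; limma adjusted p = 0.997), or a signal ratio between 0.738 and 1.31. With the negative-control median as a covariate the difference was 0.11 (SE 0.11), and without the 2 arrays of highest negative controls it was -0.05 (SE 0.12). Measured from its own array's negative-control median, Cd47 lay 6.33 to 6.64 higher on all 6 arrays.

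Cd24a encodes a small glycosylated surface protein that immature myeloid, B lineage and erythroid cells also carry. Its signals were 10.69, 11.10 and 10.81 in the Ppara+/+ samples and 10.88, 11.25 and 10.76 in the Ppara-/- samples. Replicate 2 was the highest of either genotype, and the genotypes overlapped. The difference was 0.10 (95% confidence interval -0.27 to 0.46; limma adjusted p = 0.997), from 10.87 ± 0.21 to 10.96 ± 0.26 (SD, n = 3). It was -0.05 without Ppara-/- replicate 2 and -0.14 without the 2 arrays of highest negative controls.

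Lgals9 encodes galectin-9, a secreted and surface lectin that interferon induces. It read 11.44, 10.67 and 10.80 in Ppara+/+ and 10.67, 10.91 and 10.07 in Ppara-/- replicates 1, 2 and 3. Ppara+/+ replicate 1 was the highest and Ppara-/- replicate 3 the lowest, and the other 4 lay within the overlap of the genotypes. The spread over the 6 arrays, 1.37, was the widest of the 10 ligands. Its log2 difference of -0.42 (SE 0.25), a signal ratio of 0.747 with a 95% confidence interval of 0.501 to 1.11, did not pass (limma adjusted p = 0.997; two-sided exact permutation p = 0.50, where 0.10 is the smallest that 3 against 3 can give). With 1 array left out it ranged from -0.60 (without Ppara-/- replicate 2) to -0.18 (without Ppara+/+ replicate 1, and likewise without Ppara-/- replicate 3). It was -0.23 both with array weights and with the negative-control median as a covariate.

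VISTA, the product of Vsir, is a checkpoint protein of the myeloid lineage that acts both as a ligand and as a receptor. Vsir was the steadiest of the 10 ligands: it read 9.07, 9.06 and 9.20 in Ppara+/+ and 9.16, 9.15 and 9.03 in Ppara-/- samples, a spread of 0.17 over all 6 arrays. The log2 difference was 0.00 (95% confidence interval -0.22 to 0.23; limma adjusted p = 0.997), so the interval allowed signal ratios between 0.856 and 1.17. On its own array it lay 0.84 to 1.17 above the 95th percentile of the negative controls, less far than Cd47 (2.94 to 3.42), Cd24a (2.46 to 3.09) or Lgals9 (2.16 to 3.21), a distance that also depends on the probes.

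**Figure D2:**
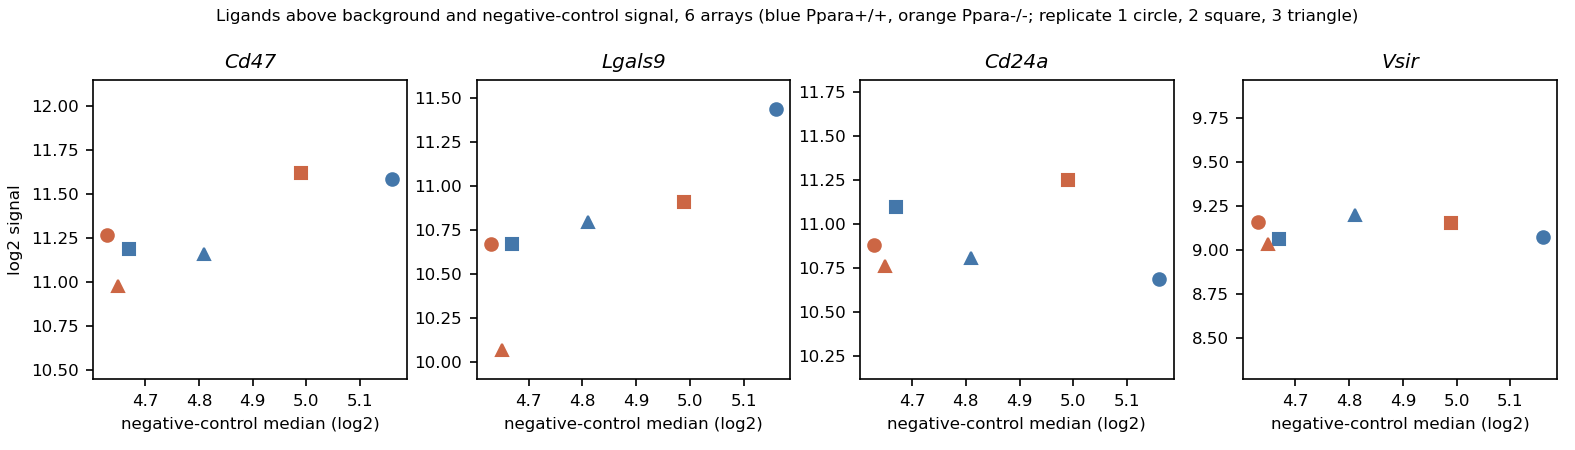
Log2 signal (y axis, with the same span of 1.7 in each panel) of the 4 ligands above background against the median log2 signal of the negative controls (x axis) on the 6 arrays, blue for Ppara+/+ and orange for Ppara-/-, with circles, squares and triangles for replicates 1, 2 and 3. The 2 arrays on the right, with medians of 4.99 and 5.16, hold the 2 highest values of Cd47 and of Lgals9, while Vsir stays between 9.03 and 9.20.

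The PD-1 ligands were dim in both genotypes. Cd274, which encodes PD-L1, read 5.81, 5.46 and 5.77 in the Ppara+/+ and 5.84, 5.36 and 5.75 in the Ppara-/- samples. Replicate 2 was the lowest of either genotype and the Ppara+/+ values lay inside the range of the Ppara-/- values. The log2 difference was -0.03 (95% confidence interval -0.38 to 0.32; limma adjusted p = 0.997), and it was 0.09 when arrays were centred on the negative controls. Pdcd1lg2, which encodes PD-L2, read 4.02, 4.22 and 4.16 in Ppara+/+ and 4.28, 4.17 and 4.24 in Ppara-/- samples, each below the negative-control median of its array. Its difference of 0.10 (95% confidence interval -0.13 to 0.33; limma adjusted p = 0.997) is thus between signals that show no RNA above background, and it was 0.04 without Ppara+/+ replicate 1. Their receptor gene Pdcd1 was also dim, with a mean of 5.37 ± 0.35 (SD, n = 3) for Ppara+/+ and 5.36 ± 0.24 for Ppara-/-.

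The B7 costimulators were dim as well. Cd80 read 5.39, 5.13 and 5.70 in Ppara+/+ and 5.30, 5.34 and 5.26 in Ppara-/- samples, so that the Ppara-/- values lay inside the range of the others. The log2 difference was -0.11 (95% confidence interval -0.44 to 0.22; limma adjusted p = 0.997), and it was 0.04 without Ppara+/+ replicate 3 and 0.02 with arrays centred on the negative controls. Cd86, which dendritic cells and monocytes raise on activation, read 5.10, 5.02 and 5.59 in Ppara+/+ and 4.87, 4.71 and 5.17 in Ppara-/- samples. Replicate 3 was the highest and replicate 2 the lowest in either genotype, and 1 of the 3 Ppara-/- values lay above 2 of the Ppara+/+ values. The difference of -0.32 (SE 0.18, 95% confidence interval -0.72 to 0.08; limma adjusted p = 0.997) did not pass. With 1 array left out it ranged from -0.45 (without Ppara-/- replicate 3) to -0.14 (without Ppara+/+ replicate 3), being -0.22 without Ppara-/- replicate 2, and with array weights it was -0.44 (limma adjusted p = 0.281).

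The nectin family ligands of TIGIT and CD226 had lower means in Ppara-/- leukemia, at signals under the 95th percentile of the negative controls. Nectin2, an adhesion molecule of cell junctions also known as CD112, read 6.03, 6.06 and 6.19 in Ppara+/+ and 5.91, 5.50 and 5.68 in Ppara-/- samples. All 3 Ppara-/- values lay below all 3 Ppara+/+ values, a separation that 1 of the 10 ligands and 8.78% of all genes had in either direction (3.63% lower and 5.15% higher in Ppara-/-). The means were 6.09 ± 0.09 and 5.70 ± 0.21 (SD, n = 3), a log2 difference of -0.40 (SE 0.13, 95% confidence interval -0.68 to -0.11) or a 1.32-fold lower signal. The difference did not pass over all genes (limma adjusted p = 0.576; unadjusted p = 0.0126 in limma; exact permutation p = 0.10, the smallest possible). It ranged from -0.50 to -0.30 with 1 array left out and was -0.33 (SE 0.11) without the 2 arrays of highest negative controls.

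Pvr, the poliovirus receptor homologue CD155, read 7.08, 6.33 and 6.91 in Ppara+/+ and 6.39, 6.22 and 6.51 in Ppara-/- samples. The genotypes overlapped through Ppara+/+ replicate 2, while the other 2 Ppara+/+ values lay above every Ppara-/- value. The log2 difference was -0.40 (SE 0.19, 95% confidence interval -0.83 to 0.03; limma adjusted p = 0.914; exact permutation p = 0.30). Leaving out Ppara+/+ replicate 2 gave -0.62 and leaving out replicate 1 gave -0.25, and the difference was -0.17 without the 2 arrays of highest negative controls. The receptor genes of this axis, Tigit, Cd96 and Cd226, were under the 95th percentile of the negative controls on every array.

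**Figure D3:**
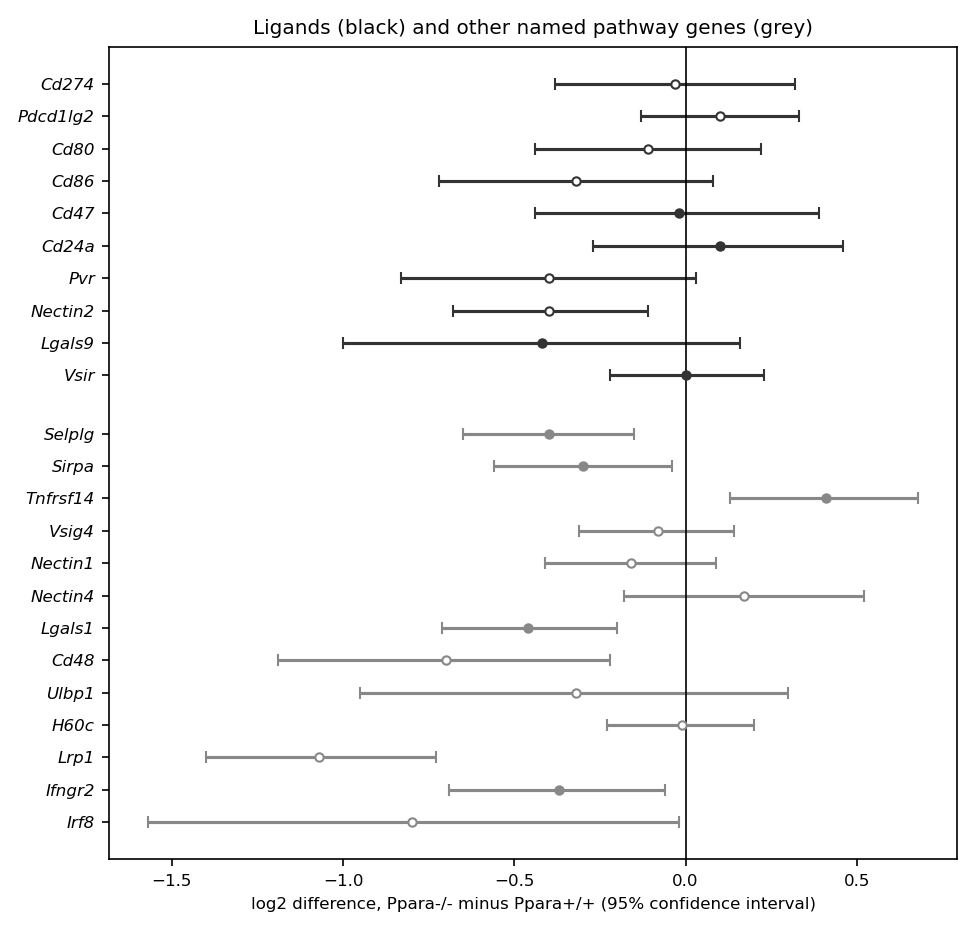
Log2 difference between Ppara-/- and Ppara+/+ leukemia (x axis) with its 95% confidence interval for the 10 ligands (black) and the pathway genes named by rule (grey), with filled points for genes above the 95th percentile of the negative controls on all 6 arrays and open points for the rest. The interval of Nectin2, -0.68 to -0.11, is the 1 interval of a ligand that does not include 0, and Lrp1 lies lowest of all at -1.07.

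Most markers of monocytes and macrophages had lower means in Ppara-/- leukemia. Of 13 such markers measured, 10 had a negative difference (median -0.29), against 42.7% of all genes (median 0.02). The 1 that passed was the adhesion molecule Vcam1, which fell 2.61-fold (log2 difference -1.39; limma adjusted p = 0.0364). Leaving out any 1 array other than Ppara+/+ replicate 2 ended this call (limma adjusted p between 0.0521 and 0.227), as did each of the 3 other normalizations (0.0751 to 0.18), with differences between -1.54 and -1.26 in those fits. Vcam1 lay under the 95th percentile of the negative controls on every array. The macrophage antigen Adgre1 was at 7.92 ± 0.22 (SD, n = 3) in Ppara-/- against 8.58 ± 0.27 in Ppara+/+ leukemia (limma adjusted p = 0.312). The 2 markers above the 95th percentile of the negative controls on all 6 arrays, named after their values were seen, went in opposite directions. Cd68 had a log2 difference of -0.73 and Cd14 of 0.23 (limma adjusted p = 0.135 and 0.997). Summed over the list, the log2 signal was 10.91 to 11.22 in Ppara-/- and 11.40 to 11.73 in Ppara+/+ samples, and 9 of the 13 markers were not above the 95th percentile of the negative controls on any array. Their part in the values of Cd86, Pvr, Nectin2 and Lgals9, which monocytes and macrophages also express, was not tested. The 10 dendritic cell markers, none above that percentile on any array, had a median difference of -0.03 and summed to 8.53 to 8.91 against 8.74 to 9.02.

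Partners of the ligands were described through 7 gene lists, of which 78 genes were measured, with a median difference of -0.01. Over all genes tested 1 of the 78 passed and was lower, and 0 were higher, where 0.0664% of all genes were called lower and 0.0597% higher. Without adjustment 14 of the 78 had a p under 0.05 in limma, against 5.78% of all genes. Of the 14, 12 were lower and 2 higher, and the share of all genes in each direction is not given here. The gene that passed was Lrp1, the endocytic receptor that recognises calreticulin as a signal for engulfment. It fell 2.09-fold, from 8.73, 8.44 and 8.46 in Ppara+/+ to 7.48, 7.23 and 7.72 in Ppara-/- samples (log2 difference -1.07, SE 0.15; limma adjusted p = 0.0497). All 3 Ppara-/- values lay below the 3 others. Lrp1 was above the 95th percentile of the negative controls on the 3 Ppara+/+ arrays only. Leaving out any 1 array ended the call, with adjusted p between 0.0511 and 0.283 and differences between -1.19 and -0.94; of 18 other fits 4 called it. Among the other 19 phagocytosis signals measured, the median of the list being -0.05, calreticulin itself (Calr), named after its values were seen, was at 10.93 ± 0.21 (SD, n = 3) in Ppara+/+ against 10.81 ± 0.23 in Ppara-/- leukemia (limma adjusted p = 0.997). In this list of 20, 4 genes were lower and 0 higher without overlap, where 3.63% of all genes were lower and 5.15% higher. Besides Lrp1 these were Pros1, Anxa1 and Mfge8, also named after their values were seen. Their log2 differences were -0.57, -0.59 and -0.34, and none passed (limma adjusted p = 0.175, 0.298 and 0.762). Anxa1 was above the 95th percentile of the negative controls on all 6 arrays, and Pros1 and Mfge8 on none.

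Receptors of the 10 ligands were mostly dim, as 10 of the 12 measured lay under the 95th percentile of the negative controls on all arrays and 0 passed (median difference 0.01). The remaining 2 were bright. Selplg encodes PSGL-1, a selectin ligand of leukocytes that can also bind VISTA, and read 10.41, 10.38 and 10.59 in Ppara+/+ and 10.19, 10.01 and 9.98 in Ppara-/- samples. Sirpa, the CD47 receptor that myeloid cells themselves carry, read 9.73, 9.55 and 9.78 against 9.34, 9.53 and 9.28. Of the 12 receptor genes these 2 were lower in Ppara-/- leukemia without overlap and 1, Cd96, was higher without overlap, where 8.78% of all genes had no overlap in either direction. The gap between the genotypes was 0.19 in Selplg and 0.02 in Sirpa, and in neither did the difference pass (-0.40 for Selplg, limma adjusted p = 0.433; -0.30 for Sirpa, limma adjusted p = 0.765). Cd96, a receptor of PVR, read 3.13, 3.38 and 3.38 in Ppara+/+ and 3.65, 3.40 and 3.74 in Ppara-/- samples, below the negative-control median of every array, and its difference of 0.30 did not pass (limma adjusted p = 0.851). The lectin gene Siglecg, whose product binds CD24, was at 6.43 ± 0.23 in Ppara+/+ and 6.52 ± 0.29 in Ppara-/- samples, and the TIM-3 gene Havcr2 at 3.86 ± 0.29 and 3.52 ± 0.06 (SD, n = 3; limma adjusted p = 0.997 and 0.861). Pdcd1, Tigit, Cd96, Cd226, Siglecg and Havcr2 were named as partners after their values were seen.

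Other ligands of immune receptors did not pass either. Of 6 further genes listed with the B7 and butyrophilin-like ligands 0 passed (median -0.05). One of the list, Tnfrsf14, encodes HVEM, a TNF receptor family member that binds the inhibitory receptor BTLA. Tnfrsf14 was at 8.84 ± 0.11 (SD, n = 3) in Ppara-/- against 8.43 ± 0.17 in Ppara+/+ leukemia (log2 difference 0.41; limma adjusted p = 0.507), with no overlap. The complement receptor Vsig4 was at background, at 3.53 ± 0.03 and 3.61 ± 0.10. Of 7 further nectins and nectin-like genes 0 passed and none was above the 95th percentile of the negative controls on any array (median 0.03), with differences of -0.16 for Nectin1 and 0.17 for Nectin4 (limma adjusted p = 0.997 for both). Without Ppara+/+ replicate 1 these were -0.09 and 0.02, and Nectin4 was at 0.27 without either Ppara+/+ replicate 3 or Ppara-/- replicate 2. Of 13 genes listed as other inhibitory ligands, which also include costimulatory ligands of the TNF family, 0 passed (median 0.00). The galectin Lgals1 was at 10.27 ± 0.10 in Ppara-/- against 10.73 ± 0.13 in Ppara+/+ samples, and Cd48, a ligand of the NK receptor 2B4, at 7.14 ± 0.41 against 7.85 ± 0.26 (SD, n = 3; limma adjusted p = 0.298 and 0.516), both without overlap. In this list of 13, 3 genes were lower and 1 higher without overlap, where 3.63% of all genes were lower and 5.15% higher without overlap.

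Of 9 listed NKG2D ligands, stress signals to NK cells, 2 were measured, and neither passed: Ulbp1 had a log2 difference of -0.32 and H60c of -0.01 (limma adjusted p = 0.997 for both). Single arrays moved the Ulbp1 difference: it became -0.06 when Ppara-/- replicate 3 was left out, -0.63 when Ppara-/- replicate 2 was, and -0.14 when Ppara+/+ replicate 1 was. Of 18 regulators of PD-L1 and of interferon gamma signalling 0 passed (median -0.02). The interferon gamma receptor chain Ifngr2 was at 8.56 ± 0.12 in Ppara-/- and 8.93 ± 0.24 in Ppara+/+ samples (limma adjusted p = 0.748). Irf8, a transcription factor of monocyte and dendritic cell development, read 8.84, 8.91 and 8.88 in Ppara+/+ and 8.47, 7.13 and 8.64 in Ppara-/- samples, with Ppara-/- replicate 2 well below the other 5. All 3 Ppara-/- values of Irf8 lay below all 3 Ppara+/+ values. Its difference of -0.80 (SE 0.34; limma adjusted p = 0.853) was -0.32 (SE 0.12) without Ppara-/- replicate 2. In this list of 18, 1 gene was lower and 1 higher without overlap, where 3.63% of all genes were lower and 5.15% higher.

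**Figure D4:**
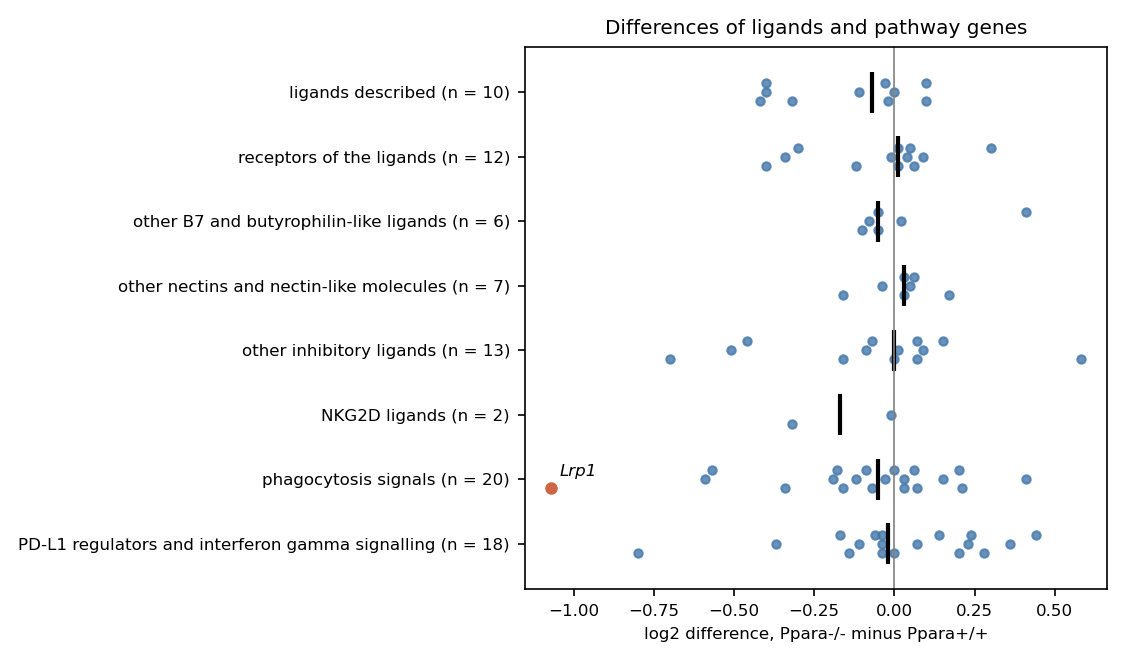
Log2 difference between Ppara-/- and Ppara+/+ leukemia (x axis) of each measured gene (points) of the ligands and of the 7 lists of related genes (rows, with the number of genes measured), with a black bar at each list's median. The medians of the lists with more than 2 genes lie between -0.07 and 0.03, and the 1 gene past the threshold, Lrp1, is in orange.

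**Figure D5:**
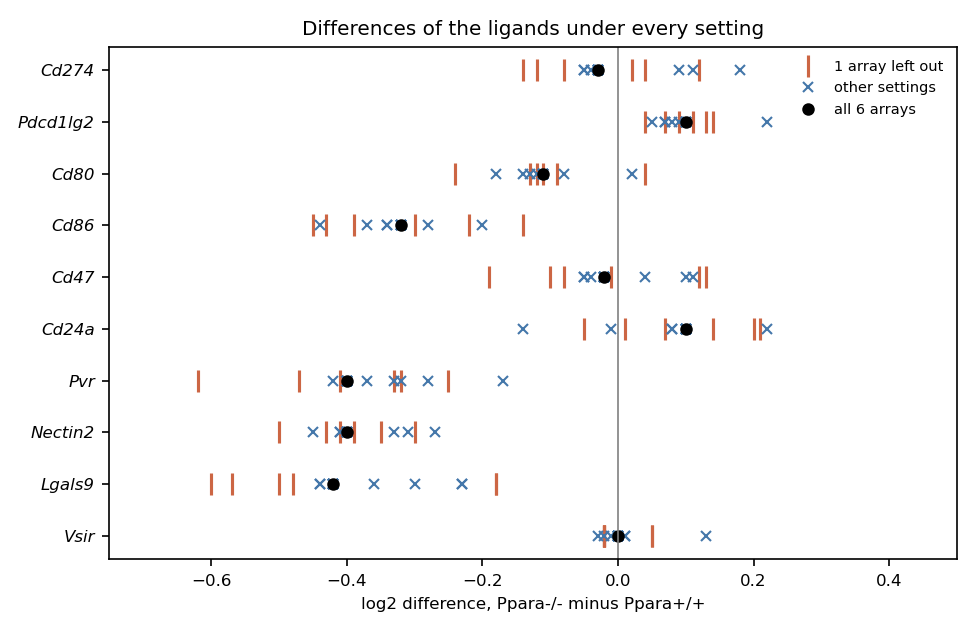
Log2 difference of each ligand (x axis) with all 6 arrays (black), with 1 array left out (orange bars) and under the other settings (blue crosses). Cd86, Pvr, Nectin2 and Lgals9 stay below 0 and Pdcd1lg2 above 0 under each setting shown, while Cd274, Cd80, Cd47, Cd24a and Vsir lie on both sides of 0.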

How the data were processed

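The members and gene lists were chosen with earlier results of these data known. The 6 samples were grouped by their titles. The authors deposited log2 signals for each probe set; per the submitters' processing notes, RMA (background correction, quantile normalization and probe summary) and limma were used. Quantile normalization removes a shift common to most genes. Versions, genome build and annotation were not given in the sources used here. Identifiers of the probe sets differ in form from those of the model in the design text, so the array model is uncertain.

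Of 72688 rows, 6732 were controls and 30604 had exactly 1 gene symbol, updated through the gene ID with RefSeq names (GRCm38.p6). Each of 30142 genes was read from its probe set of highest mean, without a filter. Limma 3.58.1 in R 4.3.3 (lmFit, eBayes, two-sided, no covariate) was fitted on all genes and called those with a Benjamini-Hochberg adjusted p under 0.05; the fit was tested on simulated data. Single genes were also compared by exact permutation (SciPy 1.17.1). The number of arrays limits the precision, and signals of different probe sets are not ranked as RNA amounts.

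Named were the ligands and, of each related list, genes past the threshold or else the 2 with the smallest p; of marker lists, genes past the threshold and 7 defining genes, of which some are not reported here. Alternatives covered prior, normalization, filters, probe sets, rows, array weights, replicate number, arrays left out and threshold. Median differences of marker lists not given above were 0.08 for mature neutrophils, 0.04 for stroma and endothelium, 0.02 for T cells, 0.05 for B cells, 0.01 for NK cells, 0.01 for erythroid cells, 0.11 for megakaryocytes and platelets and 0.23 for leukemia markers.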

Additional observations from a re-analysis of the deposited data

How the results depend on the processing

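Over 19 alternative settings the number of ligands past the threshold was 0 each time, and in limma 0 to 3 had an unadjusted p under 0.05. The settings did not weigh alike. Only 8 of the 10 ligands were tested among genes above the median signal, and 4 among genes above background on 3 arrays. The setting without the 2 arrays of highest negative-control signal called 0 genes of any kind. Depth cannot be given for arrays, and 6 of the 10 ligands have signals within the negative-control range, where a change in RNA can be missed. The number of genes past the threshold, 38 (18 higher, 20 lower), was 70 with a trended and robust prior, 13 with arrays centred on the median of named genes, 23 after quantile normalization over named genes, 22 (13 higher, 9 lower) with arrays centred on negative controls, 4 among genes above background on 3 arrays, 271 with array weights, 76 at an adjusted p under 0.1 and 6 to 38 with 1 array left out (leaving out Ppara-/- replicate 1 gave 6, Ppara+/+ replicate 3 gave 13, and Ppara-/- replicate 2 or 3 gave 17). Without the 2 arrays of highest negative-control signal limma called 0 genes (2870 at an unadjusted p under 0.05). Centring on negative controls moved the median difference of all genes from 0.02 to 0.15, and differences under it are to be read against that shift. The replicate number as a block gave 12 genes and 0 ligands; same-numbered arrays deviated together with correlations of -0.33, -0.47 and 0.11, so the numbers are not taken to pair the samples.

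Differences that changed sign, none of which had passed, were as follows. With arrays centred on negative controls, Cd274 was at 0.09, Cd80 at 0.02, Cd47 at 0.10, Cd3e at 0.10, H60c at 0.11, Ptprc at 0.04 and Vsig4 at 0.04. With array weights, Cd274 was at 0.11, Cd47 at 0.04, Cd24a at -0.01, Vsir at -0.01 and Itgam at -0.04. With arrays centred on the median of named genes Vsir was at -0.02. Without the 2 arrays of highest negative-control signal, Cd274 was at 0.18, Cd24a at -0.14, Vsir at -0.03, Itgam at -0.08 and Ptprc at 0.00, and with that signal as a covariate Cd47 was at 0.11 and Ptprc at 0.02. With 1 array left out, Cd274 ranged from -0.14 to 0.12, Cd80 from -0.24 to 0.04, Cd47 from -0.19 to 0.13, Cd24a from -0.05 to 0.21, Vsir from -0.02 to 0.05, Cd3e from -0.15 to 0.07, H60c from -0.05 to 0.01, Itgam from -0.11 to 0.18 and Ptprc from -0.18 to 0.07. The cause of these changes was not tested. Lrp1 passed in 4 of 18 other fits and Vcam1 in 6 of 17.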
